A study of Xenopus tropicalis with 4 samples.

Results

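In 4 ChIP-seq libraries from stage 8 Xenopus tropicalis embryos, a blastula stage of this frog, 622 regions called for OTX1 lay no more than 1 kb from where an annotated protein-coding gene starts or stops, and overlapped no E2F1 peak. They were 3.5% of the 17768 OTX1 regions and lay at 631 of 21749 protein-coding genes (2.9%). Peaks of the OTX1 lists that shared at least 1 bp were joined, regions with peaks from both lists were kept, and the midpoint of the joined span gave the position. Any overlap with a peak of either E2F1 list removed a region. The choice therefore rests on the peak calls and on distance, so the number, the distance limit and the lack of E2F1 at the region itself are descriptions and no findings. With peaks of a single OTX1 list the number was 1186 without replicate 1 and 1173 without replicate 2, so asking for both lists removes many regions.

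Each of the 4 samples was whole embryos. A pair of libraries came from the OTX1 Rescue group, which received OTX1 mRNA together with an MO and was precipitated through a Myc tag. The other pair came from the E2F1 Rescue group, which received E2F1 mRNA together with an MO and was precipitated through an HA tag. MO is the field's usual abbreviation for a morpholino, an antisense oligonucleotide, and the labels do not name its target. Injected, tagged protein was thus mapped, not the embryo's own, and the antibody differed between the factors. Nothing in the labels shows that replicates came from separate clutches, so differences between them may be technical.

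OTX1 belongs to the OTX family of homeobox proteins, which in vertebrates act in head, forebrain and eye development. The related CRX protein switches on genes of photoreceptors in mammals. E2F1 is a cell cycle transcription factor that acts mostly at promoters. Blastula embryos run on maternal products while the first zygotic genes start, and the title of the series concerns how E2F1 and OTX1 together influence that early transcription.

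Peaks numbered 27755 and 29098 in the OTX1 lists and 16770 and 20385 in the E2F1 lists. The weakest peaks had a q of 0.00999 and 0.00977 for OTX1 and 0.0492 and 0.0470 for E2F1, so E2F1 was called with the looser threshold. Read totals were not used here. A summit in these 622 regions held a median of 17 fragments in either OTX1 list, with 9 to 69 in replicate 1 and 9 to 66 in replicate 2. Such numbers carry a counting error of several fragments, and the order of weak regions is uncertain.

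OTX1 regions as a whole were denser near gene ends, with 18.5 per Mb within 1 kb and 12.6 per Mb from 1 to 10 kb, a ratio of 1.47 (1.39 to 1.56). By the measure used here, the OTX1-only regions among them were not. Per Mb of sequence outside E2F1 peaks, 8.22 regions lay within 1 kb of a gene end (exact Poisson 95% interval 7.59 to 8.90), against 9.15 per Mb between 1 and 10 kb (8.87 to 9.43). Farther than 10 kb from any end, between the outermost genes of each chromosome, the density was 8.71 per Mb (8.52 to 8.90). The ratio of the near to the far density was 0.899, with an interval of 0.826 to 0.978 that covers counting error only. A region was dropped if any of its bases overlapped an E2F1 peak, but only the peak's own bases left the sequence. Midpoints close beside an E2F1 peak were thus barred from sequence that still counted. E2F1 peaks are densest at gene ends, so this lowers the near density and the ratio, by an amount not measured. A ratio below 1 is therefore not read as fewer regions near gene ends. OTX1 regions shared with E2F1 were denser near gene ends. Per Mb of all sequence, 8.75 lay within 1 kb and 2.01 from 1 to 10 kb, a ratio of 4.35 (3.95 to 4.80). Overlap with E2F1 defines both classes, and removing overlaps with E2F1 takes out many OTX1 regions at gene ends, so neither ratio describes OTX1 binding in general.

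**Figure D1:**
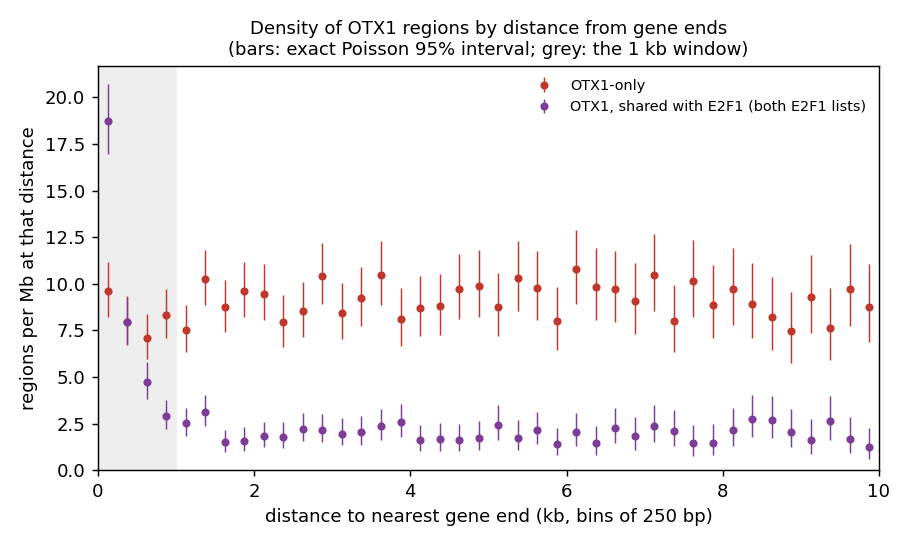
Density of OTX1 regions (per Mb) in bins of 250 bp by distance from the nearest gene end, with exact Poisson 95% intervals and the 1 kb window in grey. OTX1-only regions run between 7.11 and 10.8 per Mb from 0 to 10 kb, while shared regions start at 18.8 per Mb in the first bin and fall to 2.91 in the last bin of the window.

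In the single OTX1 lists, peaks free of E2F1 had a near to far ratio of 1.03 in replicate 1 and 0.994 in replicate 2. These values use the same exclusion of E2F1 as the class itself and are given as a description, with no test. For regions of both lists the ratio was 0.940 without E2F1 replicate 1 and 0.966 without E2F1 replicate 2, with intervals that include 1. Without peaks in the highest 10% of local background it was 1.04 (0.953 to 1.13), the highest of any setting tried. That filter was applied to the OTX1 and the E2F1 lists, so it also changed which regions overlapped E2F1. It gave 637 regions, which 533 of the 622 overlapped. The 1.04 is thus not an effect of the OTX1 background alone.

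Within the window, OTX1-only regions were spread almost evenly. The median distance from midpoint to gene end was 486.5 bp, the quartiles were 213 and 755.75 bp, and each bin of 100 bp held between 53 and 82 of the 622. Shared regions had a median distance of 206.5 bp and E2F1-only regions one of 124 bp. Within 200 bp of the end lay 24.4% of OTX1-only, 48.7% of shared and 68.7% of E2F1-only regions. Only 147 OTX1-only regions (23.6%) spanned a gene end, against 365 of 712 shared ones (51.3%). E2F1 peaks covered 15.4% of the sequence within 250 bp of an end and 7.67% of the next 250 bp, which the exclusion rule takes out of the OTX1-only class. Leaving out every region with an E2F1 peak within 500 bp, and the sequence around those peaks, gave a ratio of 0.858. That setting also bars midpoints from some sequence that it counts.

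**Figure D2:**
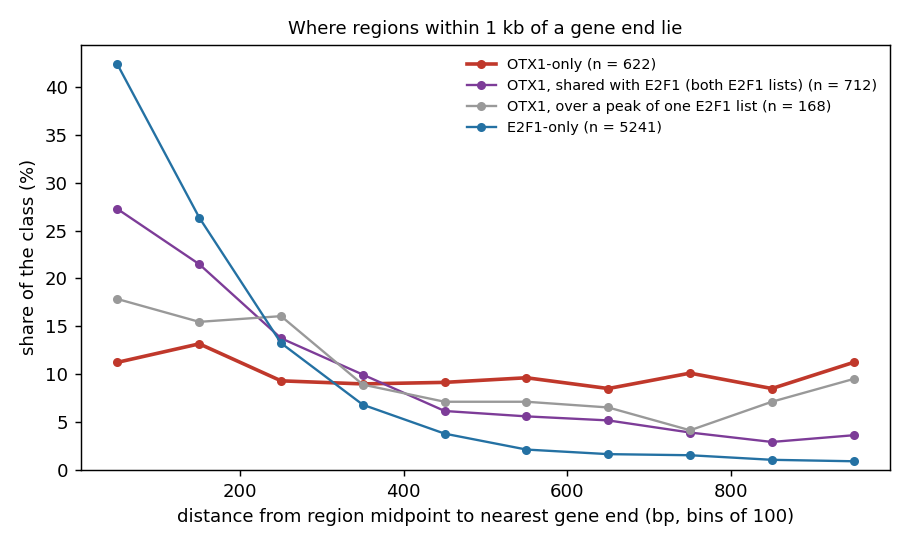
Share of each class (%) by distance of the region's midpoint from the nearest gene end, in bins of 100 bp. OTX1-only regions stay between 8.52% and 13.2% in every bin, whereas E2F1-only and shared regions are highest next to the end.

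The midpoint lay inside a protein-coding gene for 305 regions and outside all such genes for 317. That gene need not be the one whose end was near. Per Mb of such sequence this was 7.61 (6.78 to 8.51) inside and 8.92 (7.96 to 9.96) outside. The gene table gives no strand, so a gene's start and its other end are not told apart. A region lay near 1 gene in 592 cases and within 1 kb of ends of 2 genes in 30. Of the genes, 610 had 1 region and 21 had more. Chromosomes held 12.7 to 16.5 regions per 1000 gene ends, around 14.3 for all. The members' genes had a median length of 15967 bp, against 15506 bp for all protein-coding genes.

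In strength these regions were ordinary OTX1 regions. The authors' fold at the summit, which is relative to a local background, had a median of 5 in replicate 1 and 5.45 in replicate 2. The ranges were 2.77 to 11.97 and 3.02 to 12.9. OTX1-only regions inside genes had medians of 5.14 and 5.65, and intergenic ones 5.27 and 5.78. Shared regions at gene ends had 5.11 and 5.46, while shared intergenic regions reached 5.69 and 6.32. Its medians were the lowest of these in both lists, by less than the distance between its quartiles of 4.37 to 6.07 and 4.65 to 6.80. Classes were measured in the same 2 libraries, which allow no test of the difference over samples. Of the 622, 71 (11.4%) and 76 (12.2%) reached the highest 10% of folds in replicates 1 and 2. The shares were 12.5% and 12.7% for OTX1-only regions inside genes, and 14.3% and 15.3% for intergenic ones. Shared regions at gene ends had 12.2% and 9.13%. Of the 622, 37 reached it in both lists, a count given without the same count for other classes.

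**Figure D3:**
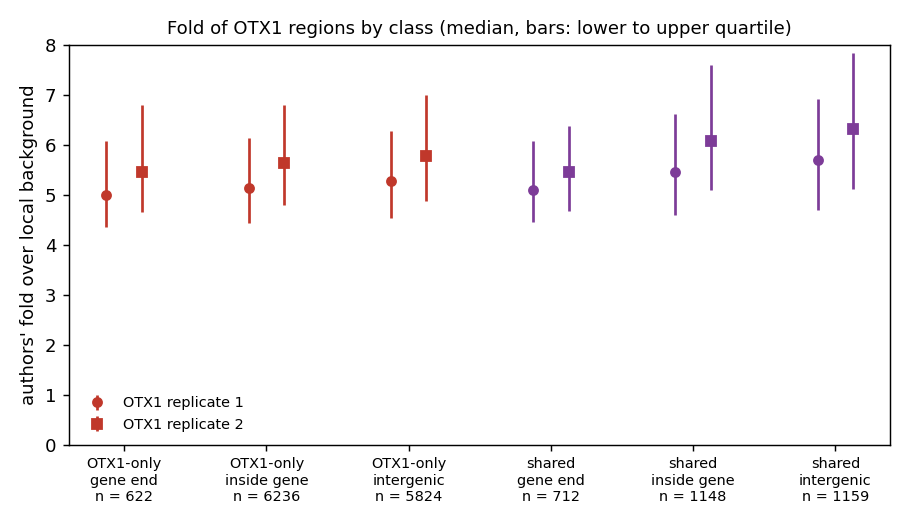
Authors' fold over local background (median, bars from lower to upper quartile) for OTX1-only and shared regions at gene ends, inside genes and between genes, in OTX1 replicate 1 (circles) and 2 (squares). The quartile ranges of all 6 classes overlap in both replicates.

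The libraries gave these regions related values. The folds in the lists had a Spearman correlation of 0.581 across the 622 regions, a description since regions share their libraries. In replicate 2, 392 regions were higher. The median fold over all OTX1 peaks was higher there too, at 5.25 against 4.91 in replicate 1. The summits of the lists lay a median of 61.5 bp apart. Distance from the gene end made little difference to the fold, with medians of 4.91, 5.11, 4.93 and 5.02 in replicate 1 for successive bands of 250 bp. Regions with an E2F1 peak within 1 kb were weaker, with medians of 4.69 and 5.05, than those with none within 10 kb, which had 5.17 and 5.67. The summit pileups ran differently, with medians of 18 and 16 fragments for the former and 16 and 16 for the latter, so the lower fold went with a higher local background.

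The highest OTX1-only region at a named gene end lay at fucolectin, a gene for a fucose-binding lectin, on chromosome 6 at 148994628 to 148995076 of xenTr10. Its folds were 11.97 in replicate 1 and 12.3 in replicate 2, on 42 and 42 fragments. Its midpoint was 609 bp from the gene's end and inside a protein-coding gene, and the nearest E2F1 peak was 41538 bp away. The region at prr29 had folds of 9.33 and 11.2 and lay 142 bp outside the gene, 49114 bp from E2F1. At fkbp4, which encodes an immunophilin that works with HSP90, the folds were 11.5 and 10.3 at 213 bp outside the gene. These 3 regions were high in both libraries and had no other OTX1 region within 10 kb.

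Erlin1, a membrane protein of the endoplasmic reticulum, had folds of 10.4 and 10.2. Dpm3, a subunit of the enzyme that makes dolichol-phosphate mannose for glycosylation, had 9.22 and 8.92. P4ha1, a prolyl hydroxylase for collagen, had 7.59 and 11.1, and qsox2, a sulfhydryl oxidase, had 7.48 and 10.5. P4ha1 and qsox2 were higher in replicate 2. Of 47 glycosylation and GPI anchor genes 3 had such a region (6.38%), namely dpm3, alg10 (4.24 and 4.62) and alg9 (3.75 and 3.92). The background was 2.9%, and the exact binomial interval of 1.34% to 17.5% includes it.

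The other leading regions lay at genes of mixed roles. Ppme1, a methylesterase of the phosphatase PP2A, had folds of 8.79 and 10.9, with an E2F1 peak 131 bp from the region. Nedd4, a ubiquitin ligase, had 7.89 and 10.5, with E2F1 286 bp away. Tirap, an adaptor of Toll-like receptors, had 7.89 and 10.1, the secreted factor fam3d 10.3 and 9.14, and the transporter slc37a3 10.4 and 8.70. The transcription factor gtf2ird1 had 7.80 and 8.24, with the midpoint 29 bp from its end. Replicate 2 was higher for ppme1, nedd4 and tirap, and replicate 1 for fam3d and slc37a3.

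**Figure D4:**
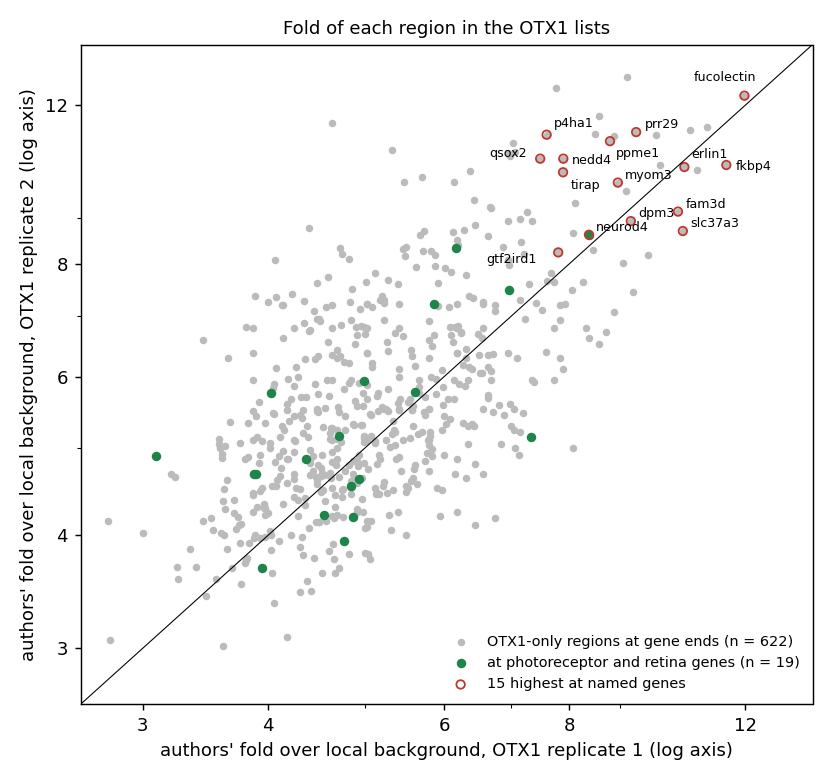
Authors' fold over local background of the 622 regions in OTX1 replicate 1 against replicate 2 (log axes, line of equal values), with the 15 highest regions at named genes circled and labelled and the 19 regions at photoreceptor and retina genes in green. Most points lie between 3 and 8 in both lists, and fucolectin is the highest labelled point.

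Some genes of germ layers and body axes had these regions. Among organizer and axis genes 3 of 29 (10.3%, exact binomial interval 2.19% to 27.4%) had an OTX1-only region at an end. Ventx3.1, a ventral homeobox gene, had folds of 6.31 and 6.43 on 39 and 32 fragments, with the midpoint 17 bp from its end and 3 other OTX1 regions within 10 kb. Its neighbour ventx3.2 had 4.54 and 5.27, and the Wnt inhibitor dkk1 had 3.58 and 5.001. In the list of endoderm and mesendoderm genes, 4 of 44 did (9.09%, 2.53% to 21.7%), which were the growth factors fgf4 (6.54 and 6.05) and fgf8 (2.77 and 4.15), the ligand wnt8a (4.71 and 4.64) and the mesodermal T-box gene tbxt (3.62 and 4.001). Both intervals include the 2.9% of all genes.

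The region at fgf8 had the lowest fold of all 622 in replicate 1, while its 4.15 in replicate 2 was at percentile 12.3 of that list. It held 35 and 48 fragments over a local background of 12 and 10.8, so a low fold here went with a tall summit and a high background. An E2F1 peak lay 156 bp away. A region at hand2, a heart and limb factor (2.78 and 3.06), and one at nr3c2, the mineralocorticoid receptor (3.61 and 3.02), were low in both lists.

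Anterior, neural and ectodermal genes had 4 of 38 (10.5%, 2.94% to 24.8%) with an OTX1-only region at an end, beside 2.9% of all genes. The list was one of several chosen with earlier results of these data known, so its interval is no test. Hesx1, a homeobox gene of the anterior forebrain and pituitary, had folds of 7.88 and 6.11, with the nearest E2F1 peak 13858 bp away. Emx2, a forebrain homeobox gene, had 4.03 and 3.85, the neural zinc finger gene zic4 had 4.04 and 3.64, and agr2, related to the secreted proteins of the frog's cement gland, had 4.71 and 3.68. Replicate 1 was the higher library for all 4. Transcription factor families grouped by symbol after the members were seen had 14 of 265 genes (5.28%), among them neurod4, foxc1 (4.68 and 4.79), nkx2-2 (5.61 and 4.78, with 4.63 and 4.63 at its other region) and atoh1 (4.49 and 4.78). Genes with a region shared with E2F1 at an end, 3.7% of all genes, took in 12 of the same 265 (4.53%).

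None of 53 DNA replication genes had an OTX1-only region at an end, with an exact binomial upper bound of 6.72%. None of 39 maternal transcription factors did (upper bound 9.03%). Both bounds lie above the 2.9% of all genes. E2F1 was at an end of 47 of the 53 (88.7%) and 24 of the 39, and removing overlaps with E2F1 lowers such counts by construction. How far it does so was not tested. E2F1 was also at an end of 84.4% of chaperone, 82.2% of ribosomal protein and 72.3% of glycosylation genes. In the other lists it was at 2.22% to 39.5% of genes. Of 45 chaperone genes, fkbp4 had an OTX1-only region at an end (2.22%, 0.0562% to 11.8%). Of 73 ribosomal protein genes 4 did (5.48%, 1.51% to 13.4%), among them rpl27 at folds of 4.71 and 5.48, rpl37a at 3.44 and 6.58, and rpl31 with 2 regions at 4.45 and 3.78 and at 3.45 and 4.15. The regions at rpl27 and rpl37a were also within 1 kb of the neighbouring genes ptges3l and mfap1. Muscle contractile genes had 3 of 45 (6.67%, 1.40% to 18.3%), which were the sarcomere genes myom3 (8.95 and 9.84), obsl1 (5.87 and 8.18) and myh3 (5.41 and 6.001). Counts in single OTX1 lists, where all genes had 5.48% and 5.49%, were higher for several lists. They were 4 and 2 in replicates 1 and 2 for chaperones, 1 and 0 for DNA replication, 2 and 1 for maternal transcription factors and 7 and 4 for ribosomal proteins. Anterior, neural and ectodermal genes had 7 and 6, and endoderm and mesendoderm genes 5 and 4. Organizer, muscle and glycosylation genes had 4 in either list.

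**Figure D5:**
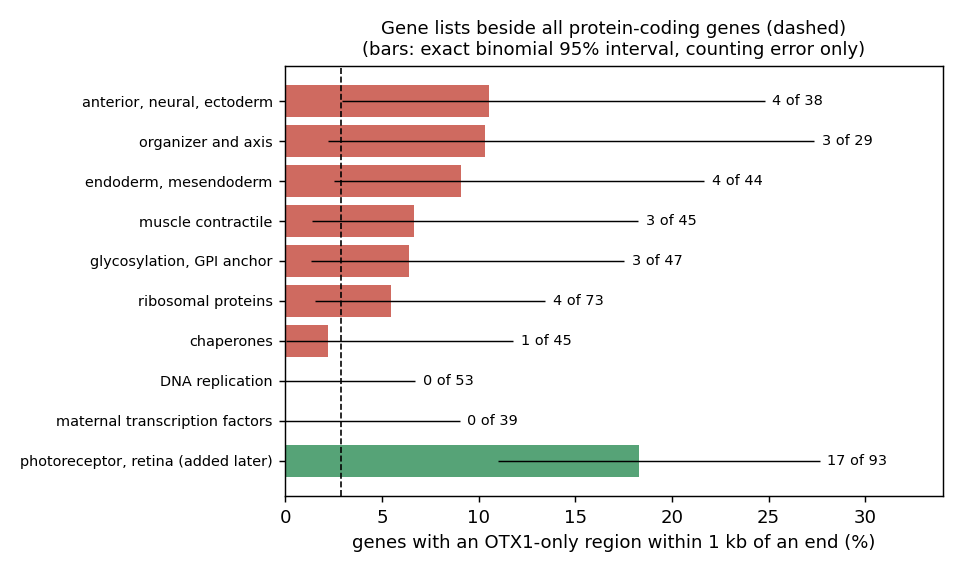
Share of each gene list with an OTX1-only region within 1 kb of an end (%), with exact binomial 95% intervals for counting error and the 2.9% of all protein-coding genes as a dashed line. Counts are written beside the bars, and the green bar is a list assembled after the members were seen, so its height is not independent of them.

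Genes of photoreceptors and the retina were among the members. A list of 93 such genes, drawn up after the members' names were known and partly because of them, had 17 with an OTX1-only region at an end (18.3%, exact binomial interval 11.02% to 27.6%), against 2.9% of all genes. The list was chosen with the outcome in view, so this share has no test and supports nothing. In single OTX1 lists the counts were 21 (22.6%) and 24 (25.8%), against 5.48% and 5.49% of all genes in the same lists. Each member has a peak in both lists, so these counts largely repeat the 17 genes and add no support. Of the 93, 1 had a shared region at an end (1.08% against 3.7%) and 8 had E2F1 (8.60% against 35.1%). Genes picked partly from a class that bars overlap with E2F1 carry that choice into both shares, which are descriptions with no test.

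The strongest of these regions lay at neurod4, a neuronal bHLH gene that also acts in the retina, on chromosome 2 at 144504823 to 144505470. Its folds were 8.37 and 8.62, and a weaker region past its other end had 4.99 and 5.93. Guca1c, a calcium sensor of phototransduction, had 6.96 and 7.49 with the nearest E2F1 peak 126065 bp away. Opn3, an opsin gene, had 6.17 and 8.34, with a further region at 4.76 and 3.94. The stronger region of each of these 3 genes was above the median fold of all 622 in both libraries.

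Below these came lrit2, a leucine-rich repeat gene of the retina (5.86 and 7.22), cabp4, a calcium-binding protein of photoreceptor synapses (5.61 and 5.76), and rpgrip1, a protein of the connecting cilium (7.33 and 5.15). Impg2, of the matrix between photoreceptors, had 4.71 and 5.16, and pdc, the phototransduction regulator phosducin, had 4.36 and 4.86. The transducin gamma genes gngt2 and gngt1 had 4.84 and 4.53, and 3.095 and 4.90. The retinoid genes rgr and rdh8 had 4.56 and 4.21, and 3.87 and 4.68. Tulp1 had 4.03 and 5.76, rax2, a retinal homeobox gene, 3.90 and 4.68, rorb.2 4.94 and 4.62, rbp4l 4.87 and 4.19, and mpp4 3.94 and 3.68. The 19 regions had median folds of 4.84 and 4.90 on 10 to 28 and 11 to 31 fragments, below the 5 and 5.45 of all 622.

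In position the photoreceptor regions lay nearer to gene ends than the class as a whole. For 11 of the 17 genes (64.7%) the nearest midpoint was within 200 bp of the end, against 156 of all 631 genes (24.7%), and the medians were 157 and 485 bp. Rax2, gngt2, tulp1 and pdc were within 43 bp. These genes are few, and the list was drawn up after the members' names were seen. The shares in this paragraph are therefore descriptions with no test. Midpoints were inside a protein-coding gene for 14 of the 19 regions, and 1 region, at gngt2, had an E2F1 peak within 1 kb. Of the 76 listed genes without an OTX1-only region at an end, 42 (55.3%) had an OTX1 region elsewhere in the gene or within 10 kb of it, against 35.1% of all genes. These 76 genes had a median length of 18966 bp, against 15506 bp for all, and whether length has a part in that share was not tested.

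E2F1 peaks of either list were more often near these regions than near other OTX1-only regions. E2F1 regions of both lists were less often at their genes than at all genes. An E2F1 peak lay within 1 kb of 127 regions (20.4%) and within 10 kb of 303 (48.7%), with a median gap of 10487.5 bp and the closest at 5 bp. For OTX1-only regions inside genes the shares were 4.59% and 31.8%, and for intergenic ones 4.002% and 29.6%. The rule places the class at gene ends, where E2F1 peaks are densest, and the other 2 classes away from them. Over all ends of genes of at least 5 kb, 19.6% had an E2F1 region of both lists within 1 kb. That share counts regions of both lists near an end, while the 20.4% counts peaks of either list near a region. The 20.4% is therefore not read as more or less E2F1 than at gene ends in general. An E2F1 region lay at an end of 166 of the 631 genes (26.3%) and of 35.1% of all genes, and the exclusion of overlapping peaks lowers the former share by construction. With a single OTX1 list the share was 33.7% without replicate 1 and 31.8% without replicate 2, closer to that of all genes.

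That exclusion acts at the region and not directly at the far end of the gene. It still selects which ends are counted, and its effect on the share at the far end was not tested. Among 558 gene ends with an OTX1-only region at genes of at least 5 kb, E2F1 was within 1 kb of the same end in 79 cases (14.2%), of the opposite end in 73 (13.1%) and of neither in 407 (72.9%), with 1 gene in both of the first counts. Over all ends of such genes 19.6% had E2F1. For shared regions the opposite end had E2F1 in 28 of 684 cases (4.09%). Of the 631 genes, 16 (2.54%) also had a shared region at an end, among them fkbp4 and dpm3, against 3.7% of all genes.

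Most OTX1-only regions at gene ends stood alone. No other OTX1 region lay within 10 kb of 442, while 147 had 1, 28 had 2 and 5 had 3. The share with a neighbour was 28.9%, against 25.3% for OTX1-only regions inside genes and 25.7% for intergenic ones. The 5 with 3 neighbours included ventx3.1, rab2b, a small GTPase of the secretory pathway (5.90 and 4.51), pcdh9, a protocadherin (3.79 and 3.73), and hand2 (3.24 and 3.69). Regions with a neighbour had median folds of 4.75 and 5.11 on 20 and 19 fragments, and those without had 5.07 and 5.52 on 17 and 16. The fold was thus lower and the pileup higher where OTX1 regions were close together. Whether nearby OTX1 regions entered the local background, and so lowered the fold, was not tested.

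Regions within 1 kb of ends of 2 genes had median folds of 4.93 and 5.13. The highest of the 30 with symbols lay near dnajc17 and gchfr (6.42 and 9.42), dcakd and the proteasome subunit psmd11 (8.71 and 6.73), mrpl44, a mitochondrial ribosomal protein, and tm4sf20 (6.09 and 6.67), and apeh and mst1r (4.98 and 5.57). At the distance limit, regions at serpinb1 (998 bp; 4.47 and 4.14), pabpc4 (997 bp; 6.01 and 7.92) and rnf20 (996 bp; 4.52 and 4.75) were just inside. Regions at adora2b (1009 bp; 4.25 and 4.67), kcnn2 (1010 bp; 6.002 and 9.52) and rnf223 (1010 bp; 7.20 and 6.96) were just outside.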

How the data were processed

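MACS2 2.2.7.1, Bowtie2 2.4.5, deepTools and fastp stand in the submitters' processing notes, with no role for any. Build xenTr10 stands in the OTX1 peak names, per the files; the E2F1 lists name no build and were read on the same one, where their peaks gathered at gene ends. The sources used here do not state whether controls were used. Each deposited list holds, per peak, the authors' score (10 times the −log10 q, whole part, in 100% of peaks), the authors' fold (a ratio to local background), and the −log10 of the p-value and q-value. Fragments at the summit were solved from the deposited fold and p-value as a Poisson upper tail, with a misfit of at most 1.81e-05. These values rank peaks only within a list.

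Regions were joined, classed and measured in Python 3.11.15 with numpy 2.4.6, pandas 2.3.3 and scipy 1.17.1. Gene ends came from RefSeq's table of UCB_Xtro_10.0, the assembly that xenTr10 names, for 21749 protein-coding genes on 10 chromosomes. Density counted OTX1-only regions per Mb of sequence outside E2F1 peaks, and shared and all OTX1 regions per Mb of all sequence. Joining, classing, density per Mb of all sequence and the solving of fragments were tested on simulated regions. Density per Mb outside E2F1 peaks was not. Named genes were the 15 highest by the lower of both fold percentiles, all listed genes with a region, 5 regions near ends of 2 genes, the 3 on each side of the limit, the 3 weakest and those with most neighbours; genes known only by a locus number are counted, not named. One listed gene with a region is counted but not reported here. Planned motif searches and the split by gene start were not run. Members and lists were chosen with earlier results of these data known. Intervals cover counting error only.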

Additional observations from a re-analysis of the deposited data

How the results depend on the processing

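The near to far density ratio stayed between 0.854 and 1.04 over 12 alternatives. It was 1.04 without peaks in the highest 10% of local background in the OTX1 and E2F1 lists. With 1 library left out the ratio ran from 0.940 to 1.03. The number of regions was 387 (394 genes) at a −log10 q of at least 5, 324 (330 genes) within 500 bp and 1280 (1312 genes) within 2 kb of an end. With 1 library left out it ran from 694 to 1186, and genes from 704 to 1195. The share of genes with a separate E2F1 region at an end was 18.5% with no E2F1 peak within 500 bp. It was 15.2% within 500 bp of an end, 36.1% within 2 kb and 17.1% without high-background peaks of OTX1 and E2F1. It was 33.7% without OTX1 replicate 1 and 31.8% without OTX1 replicate 2. Without E2F1 replicate 1 it was 34.1%, and without E2F1 replicate 2 it was 30.2%. This share lay outside its counting interval in 8 of 12 alternatives. The share over all genes was 35.1% within 1 kb with both E2F1 lists. It was not recomputed where the window, the E2F1 lists or the background filter changed. Median folds were 5.66 and 6.05 at the stricter q. With 1 library left out they ran from 4.70 to 5.02 in replicate 1 and from 5.05 to 5.50 in replicate 2. A reciprocal overlap of 50% lowered the number to 470 regions (481 genes). The summit as position gave 603 (613 genes), and E2F1 peaks at a −log10 q of at least 2 gave 625 (634 genes). Under these settings the share with E2F1, the density ratio and the median folds stayed within their spread. The density ratio and the background filter were chosen after seeing the data. No paired analysis was possible because no value was tested with a model and the factors were mapped in separate samples. Summits of 9 to 69 fragments limit how far single regions can be ranked. Motif content and the share at annotated gene starts were not analysed here under any setting, since neither sequence nor strand was used here.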

Other observations

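Sorting nexins, membrane-trafficking proteins of endosomes, had the highest share among 67 gene families grouped by the letters of their symbols, with 4 of 29 genes (13.8% against 2.9% of all genes), namely snx1, snx2, snx6 and snx18. The next were fgf with 2 of 20 (10%) and gtf with 2 of 23 (8.70%), and 24 families of at least 20 genes had none. The families were ranked on the members themselves, so the order is a description with no test. Genes known only by a locus number were 22.2% of the members' genes and 28.6% of all. A non-coding gene or pseudogene overlapped 5 of the 622 regions (0.804%), against 1.93% of all OTX1 regions.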
